A study of Mus musculus with 6 samples.

Results

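The 32 genes described here encode proteins that repair DNA or signal its damage. They were picked by symbol from the 24982 gene symbols of the coverage files, with earlier results of these data known. By pathway they are 11 genes of homologous recombination, 7 of the Fanconi anaemia pathway, 4 of the damage checkpoint, 2 of mismatch repair, 4 of non-homologous end joining, 3 of base excision and single-strand break repair and 1 of nucleotide excision repair. RNA was sequenced from a pair of untreated murine keratinocyte lines that come from neonatal skin of C57BL/6 mice, with 3 libraries per line. KSFM-Ca2+ cells were derived and kept in KSFM-Ca2+, a low-calcium keratinocyte medium without serum that, per the study, holds less calcium than DKSFM. DKSFM cells were derived from the KSFM-Ca2+ cells by adaptation to DKSFM, a defined keratinocyte medium. The cells of each medium are taken here as 1 line. DKSFM cells descend from KSFM-Ca2+ cells, so the line and its medium cannot be told apart. The sample titles do not say whether the 3 libraries of a medium came from 1 line. Per the study, several lines were derived in KSFM-Ca2+. The comparison asks how the RNA levels of the repair pathways differ between the line and its descendant.

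The deposited values are read coverage, and how it was computed is not stated. It was assumed to be the mean per base of a gene, that is a level per length, and every comparison of levels between genes rests on that assumption. Total coverage was 1601676, 1238411 and 1057750 in KSFM-Ca2+ replicates 1 to 3 and 1174348, 1239438 and 1170675 in DKSFM replicates 1 to 3. Levels below are coverage after normalization for library size, always in the order of replicates 1, 2 and 3, and means are given ± SD with n = 3. Fold changes are DKSFM over KSFM-Ca2+ on the log2 scale, so that negative values mark lower levels in DKSFM cells. A gene was called lower or higher at a Benjamini-Hochberg adjusted p under 0.01 in limma over all 12409 tested genes. All 32 genes passed the filter on low values. Their deposited coverage ran from 2.3 to 291 and was listed in steps of 0.1. The p-values measure the spread between these libraries only, since the labels do not say whether replicates were separate cultures.

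Keratinocyte markers bore out the label of the cells. The summed coverage of *Krt5*, *Krt14*, *Krt15*, *Trp63*, *Itga6* and *Col17a1* was 18607, 19011 and 18655 in KSFM-Ca2+ cells and 45005, 41083 and 45373 in DKSFM cells, with *Krt14* the most abundant. Of the other skin cells, the 5 melanocyte markers summed to between 0.212 and 0.89 in the 6 libraries, with *Dct* and *Tyr* at 0 and *Pmel* the most abundant. Fibroblast markers summed to between 0.89 and 2.34, with *Col1a1*, *Col1a2*, *Lum* and *Dcn* at 0 and *Pdgfra* alone detected. The 4 endothelial markers summed to 2.82, 3.16 and 3.30 in KSFM-Ca2+ cells and 8.28, 8.29 and 7.42 in DKSFM cells, with *Cdh5* at 0 and *Pecam1* the most abundant. The 5 immune markers summed to 10.8, 11.2 and 12.5 in KSFM-Ca2+ cells and 13.7, 18.9 and 20.7 in DKSFM cells, with *Cd3e* at 0 and *Cd68* the most abundant. *Pdgfra* (log2 fold change 0.95), *Pecam1* (1.42) and *Cd68* (0.60) were called higher in DKSFM cells by limma, and their part in the results was not tested.

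Homologous recombination copies an intact sister chromatid to mend a double-strand break, while non-homologous end joining seals the broken ends directly. The Fanconi anaemia proteins unhook crosslinked strands and hand the break to recombination, and the checkpoint kinases hold the cell cycle while repair proceeds. Excision pathways remove damaged, mispaired or bulky bases from 1 strand, and epidermal keratinocytes, which face ultraviolet light, are known for their use of nucleotide excision repair.

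Most of the 32 genes had less RNA in DKSFM cells. Of the 32 genes, 28 were called lower, beside 37.1% of all tested genes, and 1, *Prkdc*, was called higher, beside 35.5% of all tested genes. The call of *Prkdc* did not hold under quantile normalization (log2 fold change 0.28) or after centring each chromosome (0.23). No gene of the list was called higher there. *Prkdc* also lost its call in the 4 libraries labelled combined (0.49), which hold a single KSFM-Ca2+ library. *Xrcc3*, *Xrcc1* and *Ung* did not pass the test. At least 2-fold lower were 14 of the 32, beside 10.5% of all tested genes. None was at least 2-fold higher, beside 13.2%, the highest log2 fold change being 0.47. The counts by pathway and by list below stand beside these same shares of all tested genes. For 29 of the 32 genes every KSFM-Ca2+ library lay above every DKSFM library, an ordering seen in 42.1% of all tested genes. The 32 genes had a median log2 fold change of -0.86, beside 0.00 for the whole set of tested genes. In bulk RNA, fewer cells that express a gene and less of its RNA per cell cannot be told apart.

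The median level of the 32 genes was 18, 18.6 and 17.2 in the KSFM-Ca2+ libraries and 8.33, 7.84 and 7.95 in the DKSFM libraries. All 3 KSFM-Ca2+ libraries thus lay above all 3 DKSFM libraries, and no library stood apart from the others of its line. KSFM-Ca2+ replicate 2 held the top value of 15 genes, and DKSFM replicate 3 the lowest value of 15. Replicates lay close together, with a median coefficient of variation of 3.72% in KSFM-Ca2+ cells and 4.57% in DKSFM cells, beside 4.46% and 4.57% over all tested genes. Ranked among all tested genes by level, the median of the 32 moved from the 42.8 percentile in KSFM-Ca2+ cells to the 27.1 percentile in DKSFM cells. The plot of levels by library shows the separation gene by gene, with the points of *Xrcc1* and *Ung* overlapping between the lines.

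**Figure D1:**
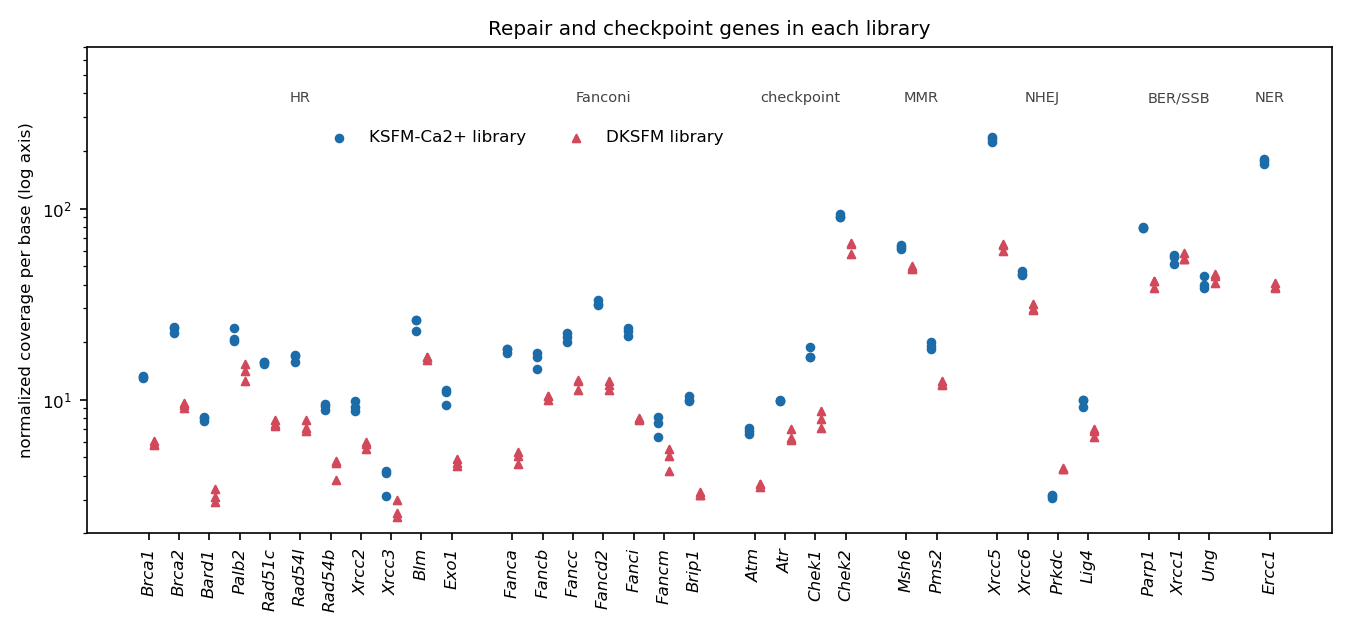
Normalized coverage per base (log axis) of each of the 32 repair and checkpoint genes in the 6 libraries, grouped by pathway, with points for the 3 KSFM-Ca2+ and 3 DKSFM libraries. For 29 genes all KSFM-Ca2+ points lie above all DKSFM points, for *Prkdc* the order is the opposite, and for *Xrcc1* and *Ung* they overlap.

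Per length, *Xrcc5* had the highest level of the 32 genes in KSFM-Ca2+ cells, 230 ± 7.45, followed by *Ercc1* at 177 ± 5.43, *Chek2* at 91.4 ± 1.93 and *Parp1* at 79.4 ± 0.806. In DKSFM cells *Xrcc5* (63.4 ± 2.77) and *Chek2* (63.0 ± 4.44) did not differ beyond their spread, and *Xrcc1* came next at 55.6 ± 2.25. *Ercc1*, at 39.4 ± 1.27, then lay below *Xrcc1*, *Msh6* and *Ung*, and within the spread of *Parp1*. *Prkdc* had the lowest mean in KSFM-Ca2+ cells, 3.12 ± 0.0486, and *Xrcc3* the lowest in DKSFM cells, 2.66 ± 0.297.

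In homologous recombination 10 of the 11 genes were called lower in DKSFM cells, 7 of them at least 2-fold, and *Xrcc3* did not pass the test. With each chromosome centred on its median, *Bard1* (-0.90), *Rad51c* (-0.98) and *Exo1* (-0.73) were still called lower, but by less than 2-fold. The median log2 fold change of the 11 was -1.05. *Brca1* (GRCm38 chr11:101488764-101551955, - strand) encodes a ubiquitin ligase subunit that promotes end resection, *Bard1* (chr1:71027498-71103146, - strand) its obligate partner, and *Brca2* (chr5:150522630-150570329, + strand) a mediator of strand exchange that binds single-stranded DNA. *Brca1* read 13, 13.3 and 13.2 in the KSFM-Ca2+ libraries and 6.05, 5.80 and 5.83 in the DKSFM libraries. *Bard1* read 7.77, 8.11 and 8.02 in the KSFM-Ca2+ libraries and 3.08, 2.90 and 3.39 in the DKSFM libraries. *Brca2* read 22.3, 23.9 and 23.6 in the KSFM-Ca2+ libraries and 9.66, 9.39 and 9.01 in the DKSFM libraries. All 3 genes were high in every KSFM-Ca2+ library and low in every DKSFM library, with gaps far wider than the spread within a line. *Brca1* fell from 13.2 ± 0.159 to 5.89 ± 0.139 (log2 fold change -1.15, SE 0.06, limma adjusted p = 5.1e-07). *Bard1* fell from 7.97 ± 0.174 to 3.12 ± 0.25 (log2 fold change -1.33, SE 0.09, limma adjusted p = 2.09e-06). *Brca2* fell from 23.3 ± 0.887 to 9.35 ± 0.327 (log2 fold change -1.30, SE 0.06, limma adjusted p = 1.81e-07).

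The starts of the genes were searched for words of the E2F family, which binds promoters of replication and repair genes, and part of the sequence before *Brca2*, *Bard1* and *Chek2* is shown, from RefSeq on GRCm38, because it holds such a word. Of the 32 genes 27 matched an entry of 250 bases before the start, and *Exo1*, *Rad54b*, *Xrcc2*, *Fancd2* and *Prkdc* did not. The E2F words searched on both strands were TTTCCCGC, TTTGGCGC, TTTCGCGC and TTTGCCGC. They occurred in 4 of the 27, beside 517 of 27025 promoters (1.91%) and 345 of the 9618 promoters of tested genes (3.59%). Those 4 were *Brca2* (log2 fold change -1.30), *Bard1* (-1.33), *Chek2* (-0.54) and *Xrcc6* (-0.60), and the *Xrcc6* window is not printed because annotated exons cover it. CCAAT, on either strand, occurred in 15 of the 27, beside 34.5% of all promoters and 37.0% of those of tested genes. TTTGAA, the cell-cycle homology word, occurred on either strand in 1 of the 27, *Bard1*, beside 16.3% and 10.4%. The stretches outside annotated exons are chr5:150522371-150522620, + strand, for *Brca2*, chr1:71103147-71103222, - strand, for *Bard1*, and chr5:110839778-110839978, + strand, for *Chek2*. They read 5′ to 3′ along the gene, with the E2F word and CCAAT, on either strand, in capitals.
Brca2: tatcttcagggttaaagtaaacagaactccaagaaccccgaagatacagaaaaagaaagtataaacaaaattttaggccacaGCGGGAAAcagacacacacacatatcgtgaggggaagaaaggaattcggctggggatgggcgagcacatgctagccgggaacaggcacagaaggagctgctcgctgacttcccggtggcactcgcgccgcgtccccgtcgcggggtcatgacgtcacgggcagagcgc
Bard1: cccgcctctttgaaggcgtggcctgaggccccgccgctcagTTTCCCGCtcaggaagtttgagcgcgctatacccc
Chek2: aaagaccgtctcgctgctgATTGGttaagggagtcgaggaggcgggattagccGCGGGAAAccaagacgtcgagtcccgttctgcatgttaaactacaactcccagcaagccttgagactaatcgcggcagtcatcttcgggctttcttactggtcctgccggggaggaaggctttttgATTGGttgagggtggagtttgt
Counted from the RefSeq start, the word lies 160 bases before *Brca2*, 201 before *Bard1* and 144 before *Chek2*. For *Bard1* 174 of those bases are exon in the annotation used for the gene positions, which places its start farther out. *Chek2* also holds CCAAT on the other strand in both flanks of the stretch. A match describes the letters only.

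Among the other factors of strand exchange, *Rad51c* encodes a subunit of the complexes it shares with *Xrcc2* and *Xrcc3*, *Rad54l* and *Rad54b* motor proteins that drive strand exchange, and *Exo1* a nuclease that resects ends. *Rad51c* read 15.7, 15.4 and 15.8 in the KSFM-Ca2+ libraries and 7.43, 7.29 and 7.84 in the DKSFM libraries. *Rad54l* read 15.8, 17.1 and 17.0 in the KSFM-Ca2+ libraries and 7.11, 7.79 and 6.89 in the DKSFM libraries. *Exo1* read 9.37, 11 and 11.2 in the KSFM-Ca2+ libraries and 4.88, 4.50 and 4.66 in the DKSFM libraries. In these 3 genes, too, no DKSFM library reached any KSFM-Ca2+ library. *Rad51c* fell from 15.6 ± 0.198 to 7.52 ± 0.286 (log2 fold change -1.05, SE 0.06, limma adjusted p = 7.47e-07). *Rad54l* fell from 16.6 ± 0.737 to 7.27 ± 0.471 (log2 fold change -1.18, SE 0.07, limma adjusted p = 1.12e-06). *Exo1* fell from 10.5 ± 0.999 to 4.68 ± 0.194 (log2 fold change -1.15, SE 0.09, limma adjusted p = 5.69e-06). *Rad54b* was lower as well (log2 fold change -1.05), but shares 35.8% of its exon bases on the same strand with *Fsbp*, which fell too (-1.59), so its reads cannot be assigned to it alone.

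Smaller drops were measured for *Palb2*, the bridge between BRCA1 and BRCA2, *Xrcc2*, a subunit of such a complex, and *Blm*, the helicase that dissolves crossed strands. Their log2 fold changes were -0.62, -0.67 and -0.60, and none of their DKSFM libraries overlapped a KSFM-Ca2+ library. *Xrcc3*, the partner of RAD51C, read 3.12, 4.25 and 4.13 in KSFM-Ca2+ cells and 2.55, 3.0 and 2.44 in DKSFM cells. Every DKSFM library lay below every KSFM-Ca2+ library, though KSFM-Ca2+ replicate 1 came close to DKSFM replicate 2. Its log2 fold change of -0.50 (SE 0.15) did not pass limma's threshold (adjusted p = 0.0126). It passed in 5 of 18 other settings, between log2 fold changes of -0.69 and -0.40 over all 18. These were quantile normalization (limma adjusted p = 0.0027), centred chromosomes (0.00656), a pseudocount of 1 (0.00952), the filter on every library (0.00884) and leaving out KSFM-Ca2+ replicate 1 (-0.64, 0.00343).

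Of 31 other genes of the recombination list, 19 were lower, 3 higher and 9 not called, with a median of -0.38. In the MRE11 complex, which senses and trims broken ends, *Mre11a* fell from 64.3 ± 0.395 to 23.0 ± 0.963 (-1.48) and *Rad50* from 41.7 ± 0.394 to 20.1 ± 0.867 (-1.05). *Nbn*, its remaining subunit, singled out here after its values were seen, read 29.8, 31.4 and 30.4 in KSFM-Ca2+ cells and 32, 31.6 and 31.5 in DKSFM cells and was not called (log2 fold change 0.05, limma adjusted p = 0.254). Its direction changed under 1 of 18 other settings. *Eme1*, a subunit of a joint-cutting nuclease, fell too (-1.25), as did *Rmi2*, a partner of BLM (-1.26), although *Rmi2* had a mean of only 0.969 and 0.345 and its log2 fold change ran from -1.62 to -0.55 over the 16 other settings that tested it, 14 of them at least 2-fold.

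In the Fanconi anaemia pathway all 7 genes were called lower, 4 of them at least 2-fold, with a median of -1.42. *Fanca* (GRCm38 chr8:123268300-123318576, - strand), *Fancb* and *Fancc* encode parts of the core complex, the ubiquitin ligase that marks the paired proteins of *Fancd2* (chr6:113531682-113597017, + strand) and *Fanci* (chr7:79391929-79450264, + strand). *Fanca* read 18.5, 18.4 and 17.5 in the KSFM-Ca2+ libraries and 5.10, 4.6 and 5.30 in the DKSFM libraries. *Fancd2* read 33.1, 31.6 and 31.4 in the KSFM-Ca2+ libraries and 11.9, 12.5 and 11.3 in the DKSFM libraries. *Fanci* read 23.6, 22.8 and 21.5 in the KSFM-Ca2+ libraries and 7.96, 7.79 and 8.06 in the DKSFM libraries. Each of the 3 was high in all KSFM-Ca2+ libraries and low in all DKSFM libraries. *Fanca* fell from 18.1 ± 0.577 to 5.0 ± 0.362, a drop of 3.58-fold (log2 fold change -1.84, SE 0.07, limma adjusted p = 1.17e-07). *Fancd2* fell from 32 ± 0.912 to 11.9 ± 0.574, 2.68-fold (log2 fold change -1.42, SE 0.05, limma adjusted p = 8.96e-08). *Fanci* fell from 22.6 ± 1.06 to 7.94 ± 0.133, 2.83-fold (log2 fold change -1.50, SE 0.06, limma adjusted p = 9.28e-08). *Brip1*, the helicase partner of BRCA1 (GRCm38 chr11:86058138-86201193, - strand), read 9.91, 10.4 and 9.79 in KSFM-Ca2+ cells and 3.18, 3.30 and 3.18 in DKSFM cells. The lines did not overlap, and *Brip1* fell 3.05-fold (log2 fold change -1.61, SE 0.07, limma adjusted p = 2.33e-07).

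Within the core complex the drop was uneven. *Fancb* read 17.5, 14.5 and 16.8 in KSFM-Ca2+ cells and 9.98, 10.4 and 10.5 in DKSFM cells (log2 fold change -0.65). *Fancc* read 21.2, 20.1 and 22.3 in KSFM-Ca2+ cells and 12.5, 12.6 and 11.3 in DKSFM cells (-0.80). Both were lower in every DKSFM library, by less than *Fanca*. *Fancm*, the translocase that anchors the complex to DNA, read 8.15, 7.52 and 6.37 in KSFM-Ca2+ cells and 5.52, 5.10 and 4.24 in DKSFM cells. Its spread was wide in both lines, with coefficients of variation of 12.3% and 13.2%, and its lines did not overlap. *Fancm* was called lower at a log2 fold change of -0.56 (SE 0.13, limma adjusted p = 0.00367). That call was lost without KSFM-Ca2+ replicate 1 (-0.48, limma adjusted p = 0.0166), KSFM-Ca2+ replicate 2 (-0.54, 0.0145), DKSFM replicate 2 (-0.58, 0.0138) or DKSFM replicate 3 (-0.46, 0.0126). It was also lost in the 4 libraries labelled combined (-0.36), which hold a single KSFM-Ca2+ library.

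Part of the promoter of *Fanca* is shown because the gene was at least 2-fold lower under each of 18 other settings and its stretch is free of annotated exons (RefSeq, GRCm38 chr8:123318577-123318826, - strand). CCAAT, in capitals, occurs at 2 places in the last bases before the start.
Fanca: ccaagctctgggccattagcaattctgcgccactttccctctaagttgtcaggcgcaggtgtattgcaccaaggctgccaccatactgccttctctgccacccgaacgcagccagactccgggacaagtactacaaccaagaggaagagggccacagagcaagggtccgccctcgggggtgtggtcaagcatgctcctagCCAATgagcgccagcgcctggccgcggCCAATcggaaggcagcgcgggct
None of the E2F words searched is in this window.

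Of the 15 other Fanconi genes 5 were lower, 4 higher and 6 not called, with a median of -0.08. At least 2-fold lower were 3 of them. Over all tested genes the shares were 37.1% lower, 35.5% higher and 10.5% at least 2-fold lower. *Fancl*, the catalytic subunit of the core complex, fell from 71.5 ± 7.12 to 24.4 ± 1.96 (log2 fold change -1.54, limma adjusted p = 5.75e-07). *Ube2t*, the conjugating enzyme that works with it, fell from 58.8 ± 1.32 to 18.1 ± 0.804 (-1.69, limma adjusted p = 1.65e-08). *Rfwd3*, a ubiquitin ligase acting later in crosslink repair, fell from 32.1 ± 0.319 to 14.4 ± 0.700 (-1.15, limma adjusted p = 1.89e-07). The log2 fold change of *Rfwd3* ran from -1.20 to -0.73 over 18 other settings, 17 of them at least 2-fold. Several other proteins of the core complex or its anchor did not follow *Fancl*, while *Cenps*, of the anchor, was called lower (-0.58). *Faap100* (0.46), *Faap24* (0.41) and *Cenpx* (0.44) were called higher, and *Fance* (0.07), *Fancf* (-0.10), *Fancg* (0.20) and *Faap20* (-0.08) were not called, with *Fance* and *Faap20* each changing sign under 1 of 18 other settings. These 8 genes were singled out after their values were seen.

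All 4 checkpoint genes were called lower, 1 of them at least 2-fold, with a median of -0.76. That gene, *Chek1*, was just under 2-fold lower with each chromosome centred (-0.99). *Atm* encodes the kinase that answers double-strand breaks, *Atr* the kinase that answers single-stranded DNA at stalled forks, and *Chek1* and *Chek2* the kinases that act after them. *Atr* read 9.83, 9.99 and 9.79 in the KSFM-Ca2+ libraries and 7.01, 6.30 and 6.15 in the DKSFM libraries. *Chek1* read 16.8, 18.9 and 16.8 in the KSFM-Ca2+ libraries and 8.71, 7.89 and 7.10 in the DKSFM libraries. *Chek2* read 90.2, 93.6 and 90.4 in the KSFM-Ca2+ libraries and 66.1, 64.9 and 57.9 in the DKSFM libraries. None of these overlapped between the lines, and *Chek2* lay far above the other 3 kinases per length in every library. *Chek1* (GRCm38 chr9:36708482-36727065, - strand) fell from 17.5 ± 1.23 to 7.90 ± 0.801 (log2 fold change -1.14, SE 0.09, limma adjusted p = 5.96e-06). *Chek2* fell from 91.4 ± 1.93 to 63.0 ± 4.44 (log2 fold change -0.54, SE 0.05, limma adjusted p = 2.35e-05). *Atr* fell from 9.87 ± 0.103 to 6.48 ± 0.459 (log2 fold change -0.60, SE 0.07, limma adjusted p = 8.87e-05). *Atm* read 7.09, 6.63 and 6.84 in KSFM-Ca2+ cells and 3.61, 3.50 and 3.6 in DKSFM cells, with no overlap, and fell with a log2 fold change of -0.92 (limma adjusted p = 8.81e-06). Of the 21 other checkpoint genes 13 were lower, 2 higher and 6 not called, with a median of -0.26. *Tipin*, a fork protection factor, was the 1 gene among them that fell at least 2-fold, from 515 ± 29.0 to 206 ± 20 (log2 fold change -1.32, limma adjusted p = 6.76e-07).

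**Figure D2:**
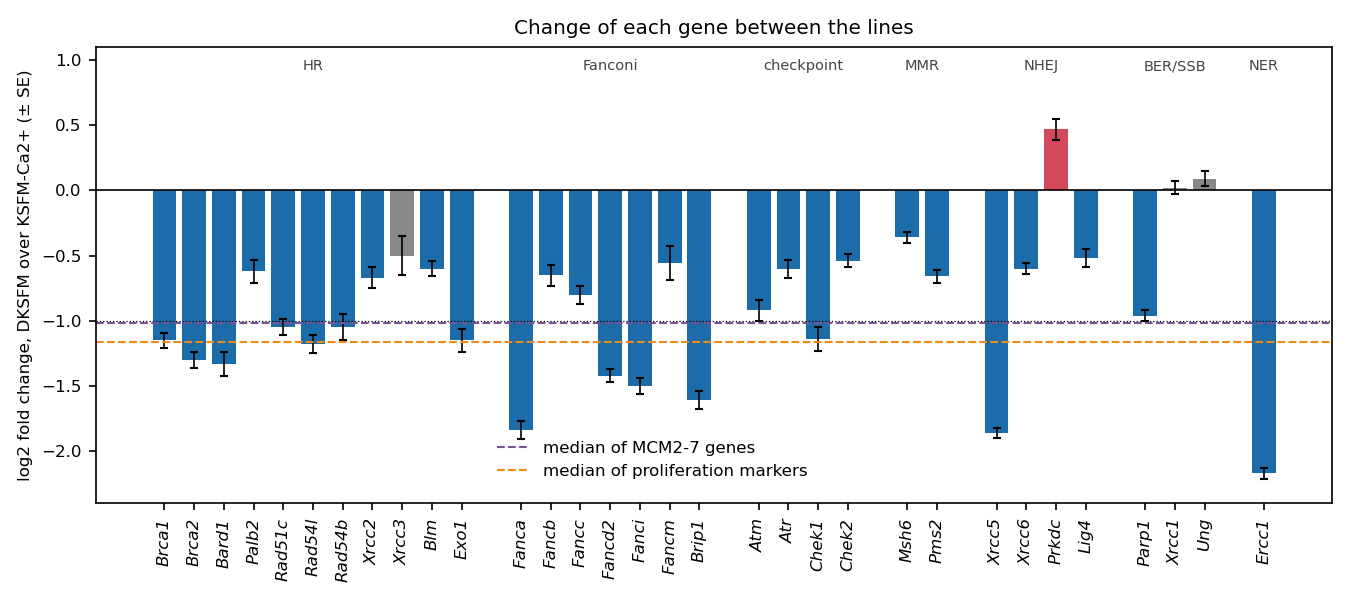
Log2 fold change (DKSFM over KSFM-Ca2+) of each of the 32 genes with its standard error, ordered within pathway, with lines at 0 and at a 2-fold drop. *Ercc1* (-2.17), *Xrcc5* (-1.86) and *Fanca* (-1.84) lie farthest below 0, and *Prkdc* (0.47, not called under quantile normalization or chromosome centring) lies above it.

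Both mismatch repair genes were called lower, with a median log2 fold change of -0.51. *Msh6* encodes a subunit of the mismatch sensor and *Pms2* a subunit of the nuclease it recruits. *Msh6* read 61.3, 63.1 and 64.8 in the KSFM-Ca2+ libraries and 48.9, 50.3 and 48.0 in the DKSFM libraries. *Pms2* read 19.2, 20 and 18.5 in the KSFM-Ca2+ libraries and 12.1, 12.5 and 11.9 in the DKSFM libraries. No DKSFM library reached a KSFM-Ca2+ library in either gene. *Msh6* fell 1.28-fold (log2 fold change -0.36, SE 0.04, limma adjusted p = 3.16e-05). *Pms2* fell 1.58-fold (log2 fold change -0.66, SE 0.05, limma adjusted p = 7.65e-06). Of 4 other genes of the list 2 were lower, 0 higher and 2 not called, with a median of -0.27. The one with the widest change was *Pms1*, which fell from 9.55 ± 0.915 to 5.33 ± 0.457 (log2 fold change -0.83, limma adjusted p = 7.86e-05). Over 18 other settings *Pms1* was called in each, between -0.95 and -0.41. *Msh3* (-0.33), the other gene called lower, was called in 14 of the 18.

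Non-homologous end joining held *Xrcc5*, which fell 3.62-fold, and *Prkdc*, the 1 gene called higher. *Xrcc5* (GRCm38 chr1:72307421-72394952, + strand) and *Xrcc6* (chr15:81987835-82040085, + strand) encode KU80 and KU70, which form a ring on broken ends, *Prkdc* (chr16:15637866-15842235, + strand) the kinase that joins them there, and *Lig4* the ligase that seals the break. *Xrcc5* read 222, 231 and 237 in the KSFM-Ca2+ libraries and 65.3, 60.3 and 64.8 in the DKSFM libraries. *Xrcc6* read 45.5, 45 and 47.4 in the KSFM-Ca2+ libraries and 29.9, 31.5 and 29.3 in the DKSFM libraries. *Prkdc* read 3.12, 3.16 and 3.07 in the KSFM-Ca2+ libraries and 4.35, 4.40 and 4.35 in the DKSFM libraries. The KU genes were high in every KSFM-Ca2+ library, whereas *Prkdc* was low there and higher in every DKSFM library. *Xrcc5* fell 3.62-fold (log2 fold change -1.86, SE 0.04, limma adjusted p = 6.41e-09). *Xrcc6* fell 1.52-fold (log2 fold change -0.60, SE 0.04, limma adjusted p = 3.71e-06). *Prkdc* was called higher, from 3.12 ± 0.0486 to 4.37 ± 0.0274 (log2 fold change 0.47, SE 0.08, limma adjusted p = 0.000899), at a coverage that the files list in steps of 0.1. The call of *Prkdc* was lost under quantile normalization (0.28, limma adjusted p = 0.0128) and with each chromosome centred on its median (0.23, limma adjusted p = 0.0356). It was lost, too, in the 4 libraries labelled combined (0.49), which hold a single KSFM-Ca2+ library. Over 18 other settings the log2 fold change of *Prkdc* ran from 0.23 to 0.49.

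*Lig4* read 9.98, 9.99 and 9.20 in KSFM-Ca2+ cells and 7.01, 6.89 and 6.36 in DKSFM cells. Its lines did not overlap, and it was called lower at a log2 fold change of -0.52 (limma adjusted p = 0.000212). With chromosomes centred the value was -0.10 and the call was lost (limma adjusted p = 0.237). The call was also lost in the 4 libraries labelled combined (-0.44), which hold a single KSFM-Ca2+ library. Of the 9 other end-joining genes 2 were lower, 5 higher and 2 not called, with a median of 0.23, beside -0.56 for the 4 genes above. *Polm*, a gap-filling polymerase, rose from 7.81 ± 0.165 to 17.9 ± 0.935 (log2 fold change 1.19, limma adjusted p = 4.97e-07). *Paxx*, which binds KU, rose from 5.89 ± 0.796 to 16.9 ± 2.44 (1.51, limma adjusted p = 9.57e-06).

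For *Xrcc5*, which was at least 2-fold lower under each of 18 other settings, the 250 bases before the RefSeq start are outside annotated exons (GRCm38 chr1:72307171-72307420, + strand). Capitals mark the 1 match to CCAAT, on the other strand.
Xrcc5: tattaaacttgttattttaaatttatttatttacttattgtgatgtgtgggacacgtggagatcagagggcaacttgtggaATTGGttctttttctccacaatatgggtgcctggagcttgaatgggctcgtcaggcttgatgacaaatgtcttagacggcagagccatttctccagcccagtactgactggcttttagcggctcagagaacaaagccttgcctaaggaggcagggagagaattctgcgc
None of the E2F words searched occurs in it.

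Of the 3 genes of base excision and single-strand break repair among the 32, 1 was called lower and 2 did not pass the test. *Parp1* (GRCm38 chr1:180568924-180601254, + strand) encodes the polymerase that marks nicked DNA with ADP-ribose, *Xrcc1* (chr7:24546289-24573440, + strand) the scaffold recruited to that mark, and *Ung* (chr5:114130386-114139323, + strand) the glycosylase that removes uracil. *Parp1* read 80.3, 79.1 and 78.7 in the KSFM-Ca2+ libraries and 41.7, 38.4 and 41.9 in the DKSFM libraries. *Xrcc1* read 55.9, 57.1 and 51.3 in the KSFM-Ca2+ libraries and 54.2, 58.2 and 54.3 in the DKSFM libraries. *Ung* read 40.0, 38.6 and 44.4 in the KSFM-Ca2+ libraries and 40.9, 44.4 and 45.7 in the DKSFM libraries. *Parp1* was high in each KSFM-Ca2+ library without overlap, while the lines overlapped in *Xrcc1* and in *Ung*. *Parp1* fell 1.95-fold (log2 fold change -0.96, SE 0.04, limma adjusted p = 2.05e-07). *Xrcc1* had a log2 fold change of 0.02 (SE 0.05, limma adjusted p = 0.711), which turned to -0.15 with chromosomes centred, to -0.025 without KSFM-Ca2+ replicate 3 and to -0.0070 without DKSFM replicate 2. *Ung* had one of 0.09 (SE 0.06, limma adjusted p = 0.216), which turned to -0.025 in the 4 libraries labelled combined.

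Of the 19 other genes of this pathway 18 were tested, with 10 lower, 3 higher, 5 not called and a median of -0.24. *Neil2* did not pass the filter. *Fen1*, the flap nuclease shared with replication, fell from 309 ± 9.89 to 147 ± 11.5 (log2 fold change -1.07, limma adjusted p = 4.86e-07). *Mutyh*, which removes adenine mispaired with oxidized guanine, fell from 12.2 ± 2.21 to 4.92 ± 0.340 (-1.28, limma adjusted p = 3.75e-05). *Mbd4*, a glycosylase for mispaired thymine, rose from 2.46 ± 0.0735 to 5.69 ± 0.491 (1.18, limma adjusted p = 8.80e-06). The log2 fold change of *Mbd4* ran from 0.88 to 1.22 over 18 other settings, 15 of them at least 2-fold. *Fen1* and *Mutyh* were each at least 2-fold lower in 17 of the 18.

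*Ercc1* (GRCm38 chr7:19344778-19356524, + strand), the single gene of nucleotide excision repair among the 32, encodes the partner of the XPF nuclease that cuts 5′ of bulky damage. *Ercc1* read 171, 178 and 182 in the KSFM-Ca2+ libraries and 39.0, 38.4 and 40.8 in the DKSFM libraries. The KSFM-Ca2+ libraries were all high and the DKSFM libraries all low, with no overlap. *Ercc1* fell 4.49-fold, the largest change of the 32 (log2 fold change -2.17, SE 0.04, limma adjusted p = 2.02e-09), and was at least 2-fold lower under each of 18 other settings, between -2.34 and -2.14. Of the 23 other genes of the list, 8 were lower, 7 higher and 8 not called, with a median of 0.01. None of them fell at least 2-fold. Over all tested genes the shares were 37.1% lower, 35.5% higher and 10.5% at least 2-fold lower. *Xpa*, the damage verifier, rose from 16.2 ± 0.830 to 35.8 ± 4.24 (log2 fold change 1.13, limma adjusted p = 5.64e-06). *Uvssa*, which acts when transcription stalls at damage, rose from 15.4 ± 0.902 to 33.0 ± 0.519 (1.09, limma adjusted p = 3.83e-07).

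Over all 8 lists, 136 other repair genes were looked up and 135 were tested. Of these 67 were lower, 25 higher and 43 not called, with 11 at least 2-fold lower and 5 at least 2-fold higher, and their median was -0.21. Among all tested genes 37.1% were lower and 35.5% higher, 10.5% at least 2-fold lower and 13.2% at least 2-fold higher. Over the other settings 54 to 77 of the other repair genes were lower and 18 to 29 higher, with 54 and 18 in the 4 libraries labelled combined, and 9 to 13 were at least 2-fold lower and 4 to 5 at least 2-fold higher. The remaining list, translesion synthesis and direct reversal, had 8 of 14 genes lower, 1 higher and 5 not called, with a median of -0.28. *Zranb3*, a fork-remodelling translocase, fell there from 13.1 ± 0.337 to 6.00 ± 0.334 (log2 fold change -1.12, limma adjusted p = 1.29e-06). Its log2 fold change ran from -1.23 to -0.69 over 18 other settings, 17 of them at least 2-fold. The 1 gene of this list called higher, *Rev3l* (0.33), was called in 7 of the 18. The plot of all tested genes by list sets the 32 beside the others of their pathway.

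**Figure D3:**
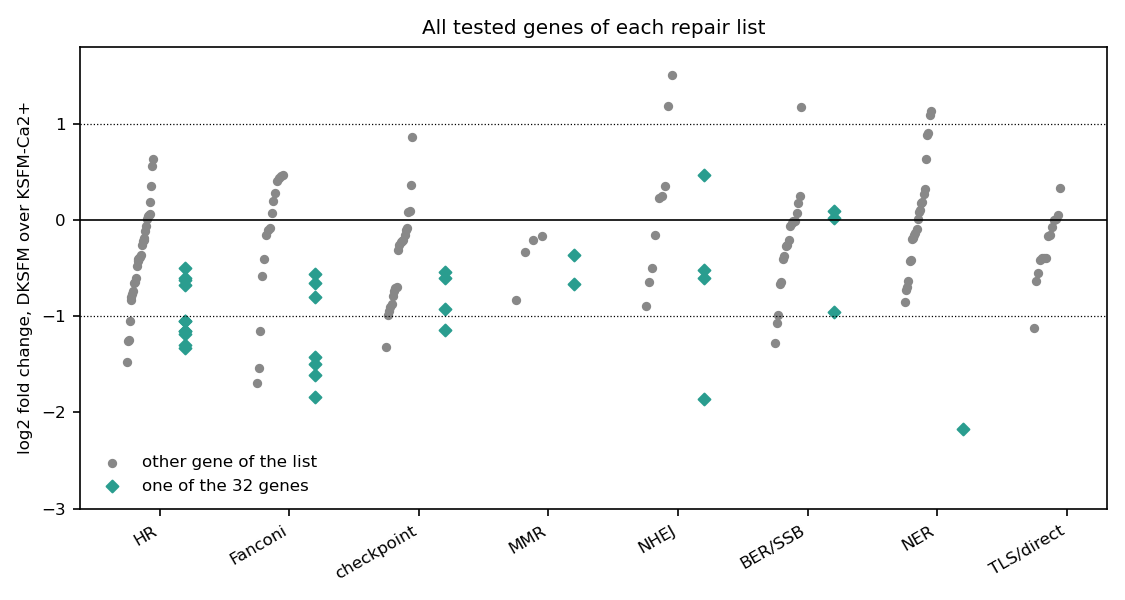
Log2 fold change (DKSFM over KSFM-Ca2+) of every tested gene of 8 repair lists, with the 32 genes and the others of each list drawn in different marks. Medians of the 32 by pathway run from -2.17 in nucleotide excision repair, with 1 gene, to 0.02 in base excision and single-strand break repair, where the direction of *Xrcc1* and *Ung* changes with the setting.

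Ratios of partner proteins' RNA, per length and within a library, show whether partners moved by the same factor. In 7 of 9 pairs the ratio did not overlap between the lines, 5 lower and 2 higher in DKSFM cells. With each library centred within each chromosome, a comparison added after the data were seen, 8 did not overlap, 7 lower and 1 higher. For levels of single genes separation was common, as 5225 of the 12409 tested genes lay wholly above in KSFM-Ca2+ cells. Another 5111 lay wholly above in DKSFM cells. How often ratios of other gene pairs separate was not tested. With 3 libraries against 3 the smallest p of an exact two-sided permutation test is 0.1, so the ratios are a description. These 7 pairs reached it, with an adjusted p of 0.129 over the 9 pairs, and the other 2 had an exact p of 0.2. The widest shift was in the XPF nuclease, where the log2 ratio of *Ercc1* to *Ercc4* was 5.78, 5.91 and 5.79 in KSFM-Ca2+ cells and 2.64, 2.65 and 2.86 in DKSFM cells. *Ercc4*, singled out as the partner, was itself called higher, from 3.13 ± 0.169 to 5.99 ± 0.335 (log2 fold change 0.91, limma adjusted p = 2.47e-05). The ratio thus went from 56.7 ± 2.84 to 6.59 ± 0.582.

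KU80 and KU70 act as a pair, yet the ratio of *Xrcc5* to *Xrcc6* went from 5.0 ± 0.128 to 2.10 ± 0.164, a log2 difference of -1.25. With chromosomes centred the log2 difference of this pair was -0.82. The ratio of *Brca2* to *Palb2* went from 1.08 ± 0.0662 to 0.676 ± 0.0908 and that of *Atr* to its partner *Atrip* from 1.19 ± 0.0413 to 0.741 ± 0.0859, both with a log2 difference of -0.69. *Atrip* was not called (log2 fold change 0.08, limma adjusted p = 0.494). *Rad51c* to *Xrcc3* went from 4.16 ± 0.755 to 2.86 ± 0.396. Higher in DKSFM cells were *Lig4* to its stabilizing partner *Xrcc4*, from 0.451 ± 0.0239 to 0.583 ± 0.0536, and *Brca1* to *Bard1*, from 1.66 ± 0.0172 to 1.89 ± 0.153. For *Brca1* to *Bard1* the gap was narrow, with a log2 ratio of 0.78 in DKSFM replicate 3 against 0.75 in KSFM-Ca2+ replicate 1, and with chromosomes centred the log2 difference turned from 0.19 to -0.16, so its direction depends on the scaling. The lines overlapped for *Fancd2* to *Fanci*, 1.42 ± 0.0397 and 1.5 ± 0.0976, and for *Xrcc1* to its ligase *Lig3*, 0.843 ± 0.0604 and 0.753 ± 0.0451, which no longer overlapped with chromosomes centred.

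**Figure D4:**
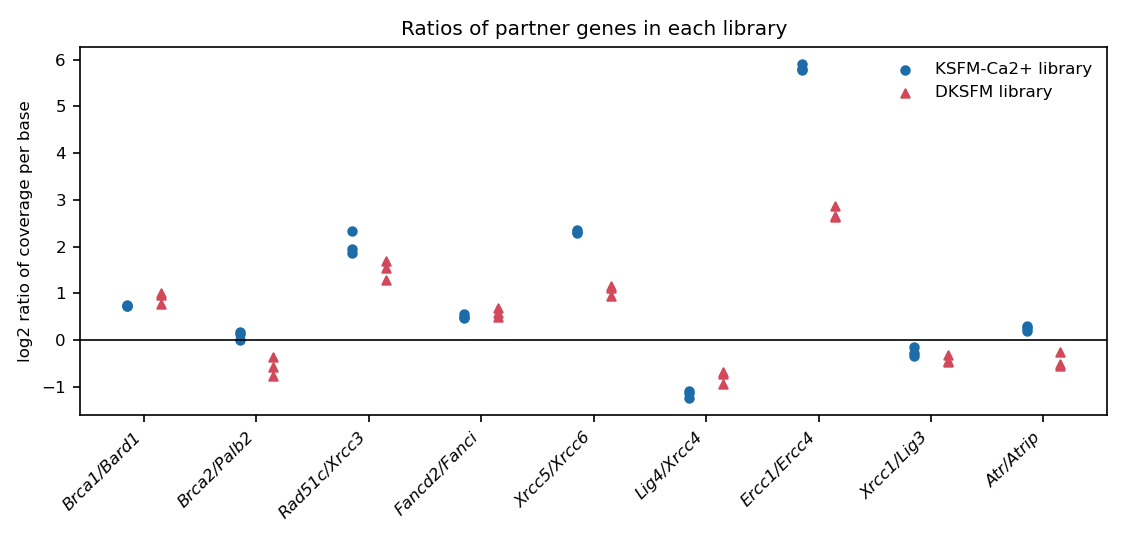
Log2 ratio of normalized coverage per base for 9 pairs of partner proteins in each of the 6 libraries, points by line. The log2 ratio differs by -3.11 for *Ercc1*/*Ercc4* and by -1.25 for *Xrcc5*/*Xrcc6*, while *Fancd2*/*Fanci* and *Xrcc1*/*Lig3* overlap between the lines.

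Genes of cell division were lower in DKSFM cells as well. The 6 genes of the MCM2-7 helicase, which opens DNA for replication, were all called lower, 3 of them at least 2-fold, with a median of -1.02. Their summed level was 877, 921 and 946 in KSFM-Ca2+ cells and 569, 523 and 544 in DKSFM cells, with *Mcm7* the most abundant. Their log2 fold changes ran from -1.50 in *Mcm3* to -0.20 in *Mcm4*, and the call of *Mcm4* was lost in the 4 libraries labelled combined (-0.22). Of 18 other settings *Mcm3* was at least 2-fold lower in 18, *Mcm5* in 17, *Mcm6* in 15 and *Mcm2* in 5. Over these settings the log2 fold change of *Mcm6* ran from -1.13 to -0.62. The 6 proliferation markers, among them *Mki67* (-1.38), *Top2a* (-1.49) and *Pcna* (-1.22), were all called lower too, 5 at least 2-fold, with a median of -1.16. Their summed level was 961, 978 and 965 in KSFM-Ca2+ cells and 432, 408 and 414 in DKSFM cells, with *Pcna* the most abundant. Of the 32 repair genes 14 had a log2 fold change below the MCM2-7 median and 9 below that of the proliferation markers. Their part in the result was not tested. Targets of p53, which the checkpoint kinases activate, went both ways, with 2 lower, 4 higher and 2 not called of 8 and a median of 0.13. *Cdkn1a*, the cell cycle inhibitor, was called higher, from 676 ± 18.2 to 767 ± 20.3 (log2 fold change 0.18, limma adjusted p = 7.47e-04). That call was lost with chromosomes centred (0.07, limma adjusted p = 0.0948) and in the 4 libraries labelled combined (0.15). Of the 2 p53 targets called lower, *Mdm2* (-0.24) also lost its call in the combined libraries (-0.20).

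The 32 genes lie on 14 chromosomes, some of which differed as a whole between the lines. The median log2 fold change of tested genes was -0.42 on chromosome 1, with 4 of the genes, and -0.43 on chromosome 8, with 2, and it was 0.31 on chromosome 6 and 0.25 on chromosome 16, with 1 gene each. Chromosomes with a median under 0 held 13 of the 32. Relative to their chromosome, 30 of the 32 lay below the median, and relative to the 20 Mb window around them, 31. The median distance was -0.75 from the chromosome and -0.76 from the window. *Ercc1* lay in a window with a median of 0.55 and *Fancd2* in one of 0.44, opposite to their own change. *Fanca* lay in a window of -0.64, *Parp1* in one of -0.54 and *Prkdc* in one of 0.53, close to the 0.47 of *Prkdc* itself. With each chromosome centred on its median, 28 of the 32 were called lower and 10 at least 2-fold lower, with *Xrcc5* at -1.43, *Fanca* at -1.42, *Fancd2* at -1.72 and *Parp1* at -0.54. The part of the regional shifts in the result was not tested.

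**Figure D5:**
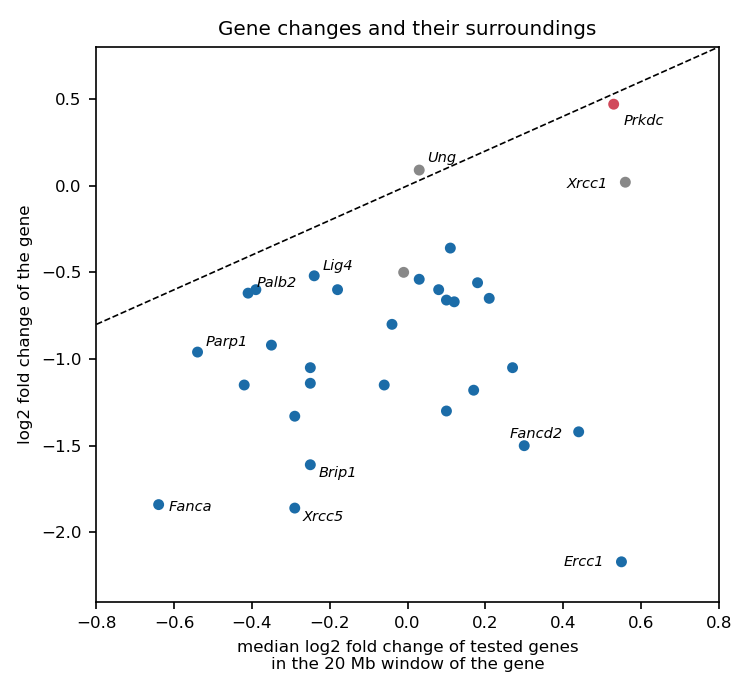
Log2 fold change of each of the 32 genes (vertical axis) against the median of tested genes in the 20 Mb window around it (horizontal axis), with a diagonal where both are equal. Below the diagonal lie 31 genes, with *Ercc1* at -2.17 in a window of 0.55 farthest from it.

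Genes that share a start region with a repair gene moved with it in some cases and not in others. By position, 14 of the 32 have a gene starting on the opposite strand at a distance of 21 to 466 bases, of which 13 were tested, with 10 lower, 2 higher and 1 not called, beside 37.1% of all tested genes lower and 35.5% higher. *Emc3*, which starts 30 bases from *Fancd2*, rose from 125 ± 2.54 to 174 ± 2.34 (log2 fold change 0.47, limma adjusted p = 1.34e-06) while *Fancd2* fell. *Nbr1*, 194 bases from *Brca1*, read 210.0, 213 and 210.0 in KSFM-Ca2+ cells and 220.0, 215 and 215 in DKSFM cells and was not called (0.04, limma adjusted p = 0.198). *Mcm4*, 466 bases from *Prkdc*, was called lower (-0.20) where *Prkdc* was called higher. *Brip1os*, opposite *Brip1*, fell along with it (-1.25), and *Npat*, opposite *Atm*, did too (-0.62). These neighbours were singled out after their values were seen.

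Some repair genes share exon bases with a gene on the opposite strand, and whether the deposited coverage was counted by strand is not stated, although the authors made directional libraries and aligned them under a setting for the first strand. The largest share, 16.4% of *Fancc*, was with *Gm16133*, which has no value in the files, as the genes that overlap 5.6% of *Palb2* and 5.5% of *Fancm* have none. Among genes with a value, the shared part was 16% of *Fanci*, with *Polg* (log2 fold change -0.70), 15.4% of *Rad54l*, with *Lrrc41* (0.40), 10.5% of *Fanca*, with *Zfp276* (-0.08 and not called), 7.7% of *Xrcc6*, with *Desi1* (-0.39), 3.4% of *Ercc1*, with *Cd3eap* (0.92), and 2.2% of *Fancc*, with *2010111I01Rik* (1.13). Of these genes *Polg* and *Desi1* were called lower, and *Lrrc41*, *Cd3eap* and *2010111I01Rik* were called higher. The part of shared exon bases in the results was not tested.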

How the data were processed

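RNA-seq libraries of poly(A) RNA from the KSFM-Ca2+ and DKSFM cells (3 each) were used. Per the labels and the methods, the authors aligned reads with STAR to mm10 with RefSeq genes, quantified with Salmon and tested with DESeq2, which was not used here. The deposited files hold signal, that is read coverage per gene to 1 decimal, not scaled to library size. Libraries were scaled by a trimmed mean of M values without weights (30% and 5% trimmed). Genes with at least 0.5 in at least 3 libraries were tested, 12409 in all, by limma 3.58.1 in R 4.3.3 with an intensity trend on log2(coverage + 0.1), two-sided, with Benjamini-Hochberg adjustment. The details of trimming and of the reference library were settled after 63 forms had been compared by the number of genes tested (12409 to 12472), with the number 12409 known from earlier results of these data. The form used at first tested 12450 genes and called the same numbers of the 32 genes lower, higher and 2-fold lower (28, 1 and 14). The 32 genes and all lists were likewise chosen with earlier results of these data known. Named were the 32 genes, the other list genes past adjusted p 0.01 and 2-fold, or the widest change where none passed, the MCM2-7, proliferation and p53 genes, and the most abundant or undetected markers. Partner ratios were compared by exact permutation over the 6 libraries. From the lists 2 genes, and with them 1 pair, were left out for a reason unrelated to their values. Alternatives were other scalings, pseudocounts, filters and fits, a replicate block and leaving out each library. Positions are from GENCODE M21 on GRCm38 and promoters from RefSeq. Python 3.11.15, pandas 2.3.3, numpy 2.4.6 and matplotlib 3.10.9 were used, and the fit was tested on simulated data.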

Additional observations from a re-analysis of the deposited data

How the results depend on the processing

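The 28 genes called lower kept their direction under all 18 other settings of the fit. Over these and a threshold of 0.05, between 26 and 29 of the 32 were called lower, and the number at least 2-fold lower ran from 10, with each chromosome centred, to 15, under quantile normalization. Leaving out each library in turn gave 27 to 28 lower and 13 to 14 at least 2-fold lower. No gene was called higher (0, against 1) under quantile normalization, with chromosomes centred, or in the 4 libraries labelled combined, where *Prkdc* lost its call. Under the filter on every library, 1032 of all genes were at least 2-fold higher, where fewer genes, 11112, were tested. Under quantile normalization the log2 difference of *Ercc1*/*Ercc4* was -2.92; the cause was not tested. With chromosomes centred the log2 difference reversed to -0.16 for *Brca1*/*Bard1* and to -0.047 for *Fancd2*/*Fanci*, and it was -0.82 for *Xrcc5*/*Xrcc6*, 0.60 for *Lig4*/*Xrcc4* and -0.40 for *Xrcc1*/*Lig3*; the cause was not tested. *Xrcc1* reversed to -0.15 with chromosomes centred and ranged from -0.025 to 0.051 when 1 library was left out (-0.025 without KSFM-Ca2+ replicate 3, -0.0070 without DKSFM replicate 2), and *Ung* reversed to -0.025 in the combined libraries; the cause was not tested. With replicate numbers as a block, 28 of the 32 were lower, 1 higher and 14 at least 2-fold lower, although the numbers do not pair (correlations of same-number residuals -0.00508, 0.0239 and -0.0061). The settings with the combined libraries only, where the single KSFM-Ca2+ library was assumed to vary like the others, with another reference library, and with chromosomes centred for the ratios were chosen after seeing the data; what combined means in the file names is not stated. Coverage of *Prkdc*, *Xrcc3*, *Bard1*, *Brip1* and *Atm* in DKSFM cells was a few units in steps of 0.1, which limits their precision.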
